A study of Mus musculus with 12 samples.

Results

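Pyruvate is the end product of glycolysis, and it can feed the citrate cycle only after it has crossed the inner mitochondrial membrane and lost a carbon as CO2. The mitochondrial pyruvate carrier brings it in, and the pyruvate dehydrogenase complex turns it into acetyl-CoA by way of its E1, E2 and E3 enzymes, the E2 enzyme carrying a lipoyl arm that hands the substrate from one active site to the next. Pyruvate dehydrogenase kinases phosphorylate the E1 alpha subunit and switch the complex off, phosphatases switch it back on, and in fat and muscle Pdk4 is known as a kinase that is induced when fatty acids are burned instead of glucose.

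The genes described here are 6 of this step: Mpc1 (a subunit of the carrier), Pdha1 (the E1 alpha subunit), Dlat (the E2 enzyme), Pdk2 and Pdk4 (kinases) and Lipt1 (the lipoyltransferase that passes lipoate to E2 enzymes). Their sites are all rows of the deposited tables of differential m6A sites that carry one of these gene names, which gave 6 of 739 sites, 1 for each gene. m6A (N6-methyladenosine) is a methyl mark on adenosines of mRNA. It was mapped by MeRIP-seq, in which mRNA fragments bound by an anti-m6A antibody (IP) are sequenced beside untreated fragments (input). The tissue was inguinal white adipose tissue (iWAT), a subcutaneous fat pad in which heat-producing beige adipocytes appear in the cold, although the labels also give adipocytes as the source. All mice were C57BL/6 males of 2 months (C57BL/6J in the methods of the study) with no transgene or deletion named in the sources, and they had spent 7 days either at 4 °C (cold) or at 30 °C (thermoneutral). Each temperature had 3 IP and 3 input libraries, 12 in all, and how many mice went into a library is not given in the sources used here.

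The tables hold 1 finished value per site for cold against thermoneutral, so values of single libraries were not analysed, the depth is unknown and no fold below has an error or an n. The fold is the ratio of the larger to the smaller group as diffReps, the authors' differential caller, gave it. Nothing in the sources states that the inputs were used for it, so a fold may reflect transcript amount in addition to methylation. Fewer cells of a type and less RNA per cell cannot be told apart in whole tissue either. The smallest fold among higher sites was 4.05 and the largest p was 9.65e-06, so a gene without a site may still have changed by less. Of all 739 sites, 301 were higher and 438 lower in cold, in 574 genes.

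The mRNA sequences under the 6 sites are shown first, since they are what the antibody signal rests on. GGAC is the commonest core of the sequence in which the adenosine is methylated (the A is the third letter), and it was searched on the transcribed strand. The first set gives 30 bases around a GGAC of each 3′ UTR site, read from the RefSeq genome GRCm38.p6 5′ to 3′ along the mRNA, with GGAC in capitals. The sites of Mpc1, Pdha1 and Dlat hold only the GGAC shown, and for Pdk4 the pair nearest to the stop codon is shown.
Mpc1, GGAC at chr17:8297171-8297174, + strand: catagcggtacaaGGACcagctcttgaaag
Pdha1, GGAC at chrX:160123713-160123716, - strand: gtgctctcaacttGGACaggaaatacccag
Dlat, GGAC at chr9:50635721-50635724, - strand: ggtgactgtacatGGACccgagtgtcacgt
Pdk2, GGAC at chr11:95027120-95027123, - strand: ccagccaccacagGGACcttccctatctat
Pdk4, GGAC at chr6:5485376-5485379, - strand: cgtgaatgtgtgtGGACtctagtttccgca
Pdk4, GGAC at chr6:5485294-5485297, - strand: ttgacctgatgagGGACagagcttggttgg

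The second set gives coding sequence (CDS) under the sites up to and including the stop codon, again with GGAC in capitals. The kinases are shown together because both sites begin at or within 2 bp of the start of the last exon and so cover the matching end of the coding sequence. There Pdk2 had 1 GGAC and Pdk4 had none. Lipt1 is shown because its site, unlike the other 5, lay mostly in coding sequence, and the last 300 coding bases hold 3 of its 5 GGAC.
Pdk2, chr11:95027182-95027320, - strand: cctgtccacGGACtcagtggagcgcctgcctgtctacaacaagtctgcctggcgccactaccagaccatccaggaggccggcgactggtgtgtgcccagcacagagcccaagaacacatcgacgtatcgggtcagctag
Pdk4, chr6:5485449-5485592, - strand: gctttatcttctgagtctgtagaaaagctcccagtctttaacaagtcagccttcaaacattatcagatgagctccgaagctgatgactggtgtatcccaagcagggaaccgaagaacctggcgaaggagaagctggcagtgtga
Lipt1, chr1:37875687-37875986, + strand: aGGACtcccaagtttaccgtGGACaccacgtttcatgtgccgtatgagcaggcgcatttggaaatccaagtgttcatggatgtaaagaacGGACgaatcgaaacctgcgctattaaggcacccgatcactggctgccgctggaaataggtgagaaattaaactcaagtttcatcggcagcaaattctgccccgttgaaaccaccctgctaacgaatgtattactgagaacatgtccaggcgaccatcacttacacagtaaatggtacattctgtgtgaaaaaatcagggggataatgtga

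All 6 sites were in the table of sites higher in cold and none was in the table of lower sites. The genes were chosen by the deposited calls and folds of this same contrast, so direction and folds are a description and carry no test. Over all sites 40.7% were higher, and of the 558 genes with sites of a single direction 37.1% were higher only. Grouped by role, the folds were 4.66 to 7.33 for the carrier, both subunits of the complex and the lipoyltransferase, and 18.9 to 91.8 for the kinases. The median of the 6 folds was 7.26, against 11.8 for all 301 higher sites (quartiles 6.87 and 62.7).

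**Figure D1:**
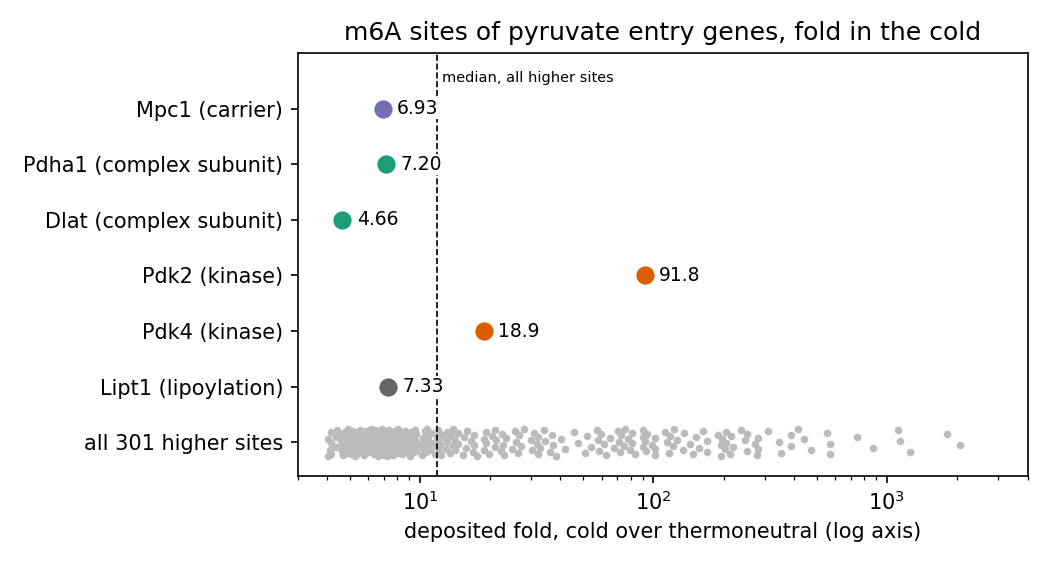
Deposited fold of each site, cold over thermoneutral, on a log axis, with 1 point per site, colours by role, all 301 higher sites in grey (spread vertically only to separate the points) and their median of 11.8 as a dashed line. The kinases Pdk2 (91.8) and Pdk4 (18.9) sit to the right of the median, and the other 4 genes lie between 4.66 and 7.33, to the left of it.

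The carrier came first in the pathway. Mpc1 (Entrez gene 55951) pairs with Mpc2 to form the carrier through which pyruvate enters the matrix. Its site was 6.93-fold higher in cold by the authors' deposited value (log2 fold 2.79, p = 1.48e-07, FDR 1.46e-06), rank 224 of the 301 higher sites by fold. The site covered 524 bp at chr17:8297138-8297661, in exon 5 of 5. It began with the first base of this exon and ran through 25 coding bases, the stop codon and 98.8% of the 505 bp 3′ UTR, so that 55.8% of the 939 bp mRNA was under the site. Its end lay 6 bp before the end of the exon. A pair of other places in the genome matched the site at 95% identity or more over at least 100 bp. Both are annotated as processed pseudogenes of chromosome 12, Gm8219 (521 bp, 97.1% identical) and Mpc1-ps, and reads of Mpc1 could be split between them and the gene. On the opposite strand, exons of the gene 4930506C21Rik lay under 49.4% of the site. The strand handling of the library kit is not given in the sources used here, so reads of the 2 genes cannot be told apart.

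Pdha1 (Entrez gene 18597) encodes the E1 alpha subunit, which holds the serines that the kinases phosphorylate. Its site was 7.20-fold higher in cold by the authors' deposited value (log2 fold 2.85, p = 2.98e-06, FDR 2.38e-05), the largest p of the 6 and rank 285 of 301 by p. It covered 786 bp at chrX:160123162-160123947 in exon 11 of 11, from the first base of the exon through 165 coding bases into 621 bp of the 3′ UTR, 39.7% of its 1564 bp. Exons of Map3k15 on the opposite strand lay under 24.2% of the site, and Map3k15 had no site of its own in the tables. No other place in the genome matched the Pdha1 site by the criteria used for Mpc1.

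Dlat (Entrez gene 235339) encodes the E2 enzyme, the lipoylated core of the complex. Its fold of 4.66 was the smallest of the 6 and rank 290 of the 301 higher sites, while its p of 1.30e-08 (FDR 2.12e-07) was the smallest of the 6 and rank 95, both in the authors' deposited table. The order of the sites by fold was thus not their order by p. The Dlat site was also the only one of the 6 that did not reach the stop codon. It covered 819 bp at chr9:50635322-50636140 in exon 14 of 14, starting 414 bp into the exon, and ran from base 285 to base 1103 of the 1792 bp 3′ UTR. No overlapping gene and no other match in the genome was found for it.

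Pdk2 (Entrez gene 18604), a kinase made in most tissues, had the largest fold of the 6. Its site was 91.8-fold higher in cold by the authors' deposited value (log2 fold 6.52, p = 3.48e-08, FDR 4.16e-07), and 58 of the 301 higher sites had a larger fold. With 399 bp at chr11:95026922-95027320 it was also the shortest of the 6. It lay in exon 11 of 11, began 2 bp into the exon, covered the last 139 coding bases and ended 260 bp into the 924 bp 3′ UTR. A fold of this size says that the thermoneutral value was small beside the cold one, and neither value was analysed here. No overlapping gene and no second match in the genome was found for the Pdk2 site.

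Pdk4 (Entrez gene 27273) is the kinase known for its induction by fasting, fatty acids and glucocorticoids. Its site was 18.9-fold higher in cold by the authors' deposited value (log2 fold 4.24, p = 5.36e-07, FDR 4.75e-06), rank 121 by fold. It was the longest of the 6 and the fourth longest (rank 4) of all 301 higher sites, with 2031 bp at chr6:5483562-5485592. The site began with the first base of exon 11 of 11 and ran through 144 coding bases and 1887 bp of the 2098 bp 3′ UTR (89.9%), so that 58.8% of the 3453 bp mRNA was under it. A stretch between bases 1600 and 1752 of the site belongs to an interspersed repeat, with 1423 matches elsewhere in the genome, the longest of 147 bp. All 5 GGAC of the site lay outside that stretch.

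Lipt1 (Entrez gene 623661) encodes the lipoyltransferase without which E2 enzymes stay without their lipoyl arm. Its site was 7.33-fold higher in cold by the authors' deposited value (log2 fold 2.87, p = 5.24e-07, FDR 4.66e-06), close to the folds of Mpc1 and Pdha1. Its place differed from the others, with 705 of its 779 bp (chr1:37875282-37876060, exon 2 of 2) in coding sequence and 74 bp in the 3′ UTR. The site covered 62.8% of the 1122 bp CDS and ended 74 bp past the stop codon. The sites of Mpc1, Pdha1, Pdk2 and Pdk4 likewise contain the stop codon of their own mRNA. Mitd1 runs over the same stretch on the opposite strand, with no exon under the site.

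The kinases that switch the complex off had larger folds than the subunits of the complex. Pdk2 and Pdk4 stood at 91.8 and 18.9, and Pdha1 and Dlat at 7.20 and 4.66, so these pairs did not overlap, and the lower kinase was 2.62 times the higher subunit. On the log2 scale the mean was 5.38 for the kinases and 2.53 for the subunits, a difference of 2.85. Within the kinases the fold of Pdk2 was 4.87 times that of Pdk4, and with Pdk2 left out, a setting added after seeing the data, the difference was 1.70. No test of this contrast was made, because the same values chose the genes, and 2 genes against 2 could not go below a p of 0.333 in an exact two-sided permutation test. By p the groups did not separate, as the order was Dlat, Pdk2, Pdk4, Pdha1 from the smallest to the largest. A minimum fold of 8 left only Pdk2 and Pdk4 of the 6, where 64.1% of all higher sites passed. A p of at most 1e-07 left Dlat and Pdk2, where 55.8% of all higher sites passed.

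The kinase transcripts are related in sequence, and their sites can be compared end to end. Over the whole CDS, Pdk2 and Pdk4 shared 66.2% of aligned nucleotides, and over the coding part of the last exon 59.7% (86 of 144 aligned positions). At this distance neither site matched the other gene by the criteria of 95% identity over 100 bp. Beyond the stop codon the sites differed in extent, with 260 bp of 3′ UTR for Pdk2 and 1887 bp for Pdk4. The other kinases, Pdk1 and Pdk3, had no site in the tables, although their last exons of 3875 and 649 bp were long enough to hold one.

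Position was not used by the rule. All 6 sites lay in the last exon of their transcript, where 71.2% of the 274 higher sites that could be placed on a transcript lay. The midpoint was in the 3′ UTR for 5 of 6, against 62.4% of the placed higher sites, and in the CDS for Lipt1. Counted from the last base of the stop codon, the midpoints were at +61 for Pdk2, +229 for Pdha1, +237 for Mpc1, +694 for Dlat, +872 for Pdk4 and -315 for Lipt1. Both CDS and 3′ UTR lay under 5 of the 6 sites, all but Dlat, against 33.9% of placed higher sites. For 5 of the genes the last exon was the only exon of at least 300 bp, the shortest site in the tables, and Dlat had 1 more, its first exon of 590 bp. Over the tables, 94.6% of sites lay inside a single exon, so for these 5 genes a site of that length inside 1 exon could only be in the last one. The median length of the 6 sites was 782.5 bp, against 419 bp for all higher sites, and 5 of the 6 were longer than 419 bp, all but Pdk2 with 399 bp.

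**Figure D2:**
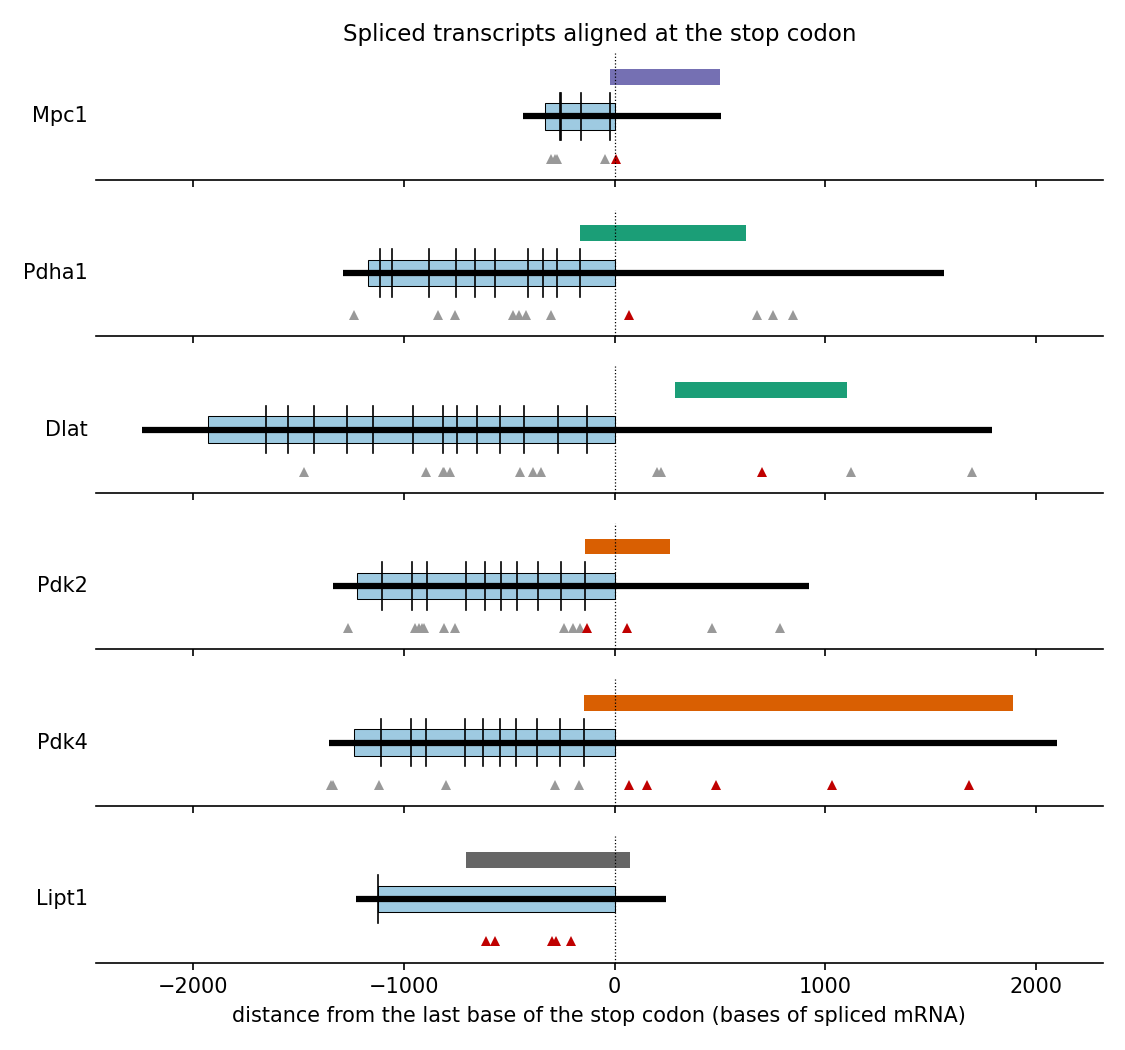
Each spliced RefSeq mRNA is drawn to scale in bases from the last base of the stop codon (dotted line at 0), with the CDS as a blue box, exon boundaries as vertical ticks, the m6A site as a coloured bar above and each GGAC as a triangle below, red inside the site and grey outside. Bars of 5 genes cross the stop codon, that of Dlat starts 285 bases after it, and that of Lipt1 lies mostly to its left.

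Most of the 6 sites held GGAC at a density below the median of all sites inside a single exon. GGAC occurred once in the sites of Mpc1, Pdha1 and Dlat, 2 times in Pdk2 and 5 times each in Pdk4 and Lipt1. Per kb this was 1.91 for Mpc1, 1.27 for Pdha1, 1.22 for Dlat, 5.01 for Pdk2, 2.46 for Pdk4 and 6.42 for Lipt1. The median of the 6 was 2.19, and over the 699 sites inside a single exon it was 3.45, of which 84.1% held at least 1 GGAC at lengths that vary from site to site. Pdk2 and Lipt1 stood at percentiles 61.2 and 78.6 of these 699 sites, and the other 4 between 16.2 and 26.5. A GGAC is a match of letters, and which adenosine was methylated was not measured.

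Within each transcript the GGAC density can be set beside that of the same mRNA outside the site. In 5 of 6 genes it was lower inside than outside. No such contrast was made for the other sites of the tables. In Mpc1, Pdha1, Dlat and Pdk2 the sites lay mostly in the 3′ UTR. Most GGAC of these mRNAs lay in coding sequence (4 of 5, 6 of 11, 8 of 13 and 10 of 14). The Pdk4 site also lay mostly in the 3′ UTR, but 4 of the 11 GGAC of its mRNA were coding and 5 were in the 3′ UTR. The part of this placement in the densities was not tested. The largest gap was in Mpc1, where 1 of 5 GGAC lay inside a site that covered 55.8% of the mRNA, which gave 1.91 per kb inside and 9.64 outside. Pdha1 had 1 of 11 and Dlat 1 of 13 inside. Pdk2 had 2 of 14 inside (5.01 per kb inside, 6.44 outside) and Pdk4 had 5 of 11 (2.46 inside, 4.22 outside). Lipt1 went the other way, with all 5 of its GGAC inside the site, each in coding sequence between 610 and 209 bases before the end of the CDS, and none in the other 693 bp.

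The wider motif DRACH (in which R stands for a purine, D for any base but C and H for any base but G) gave a flatter picture. It occurred 14 times in the site of Mpc1, 16 in Pdha1, 18 in Dlat, 7 in Pdk2, 42 in Pdk4 and 19 in Lipt1. Per kb the range was 17.5 (Pdk2) to 26.7 (Mpc1), around the median of 21.9 over the 699 sites. Density was higher inside than outside the site for Mpc1, Pdha1, Dlat and Lipt1, and lower for Pdk4 (20.7 inside, 23.2 outside) and Pdk2 (17.5 inside, 17.7 outside). Pdk2 was thus above the median of all sites for GGAC and below it for DRACH, and Mpc1 the reverse. Of the 15 GGAC in the 6 sites, 14 were also DRACH, the exception being 1 in Lipt1 followed by G. Base composition moved along, with GC of 57.9% in the Pdk2 site, 48.5% in Lipt1 and 35.9% to 42.4% in the other 4, and its part in the motif counts was not tested.

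**Figure D3:**
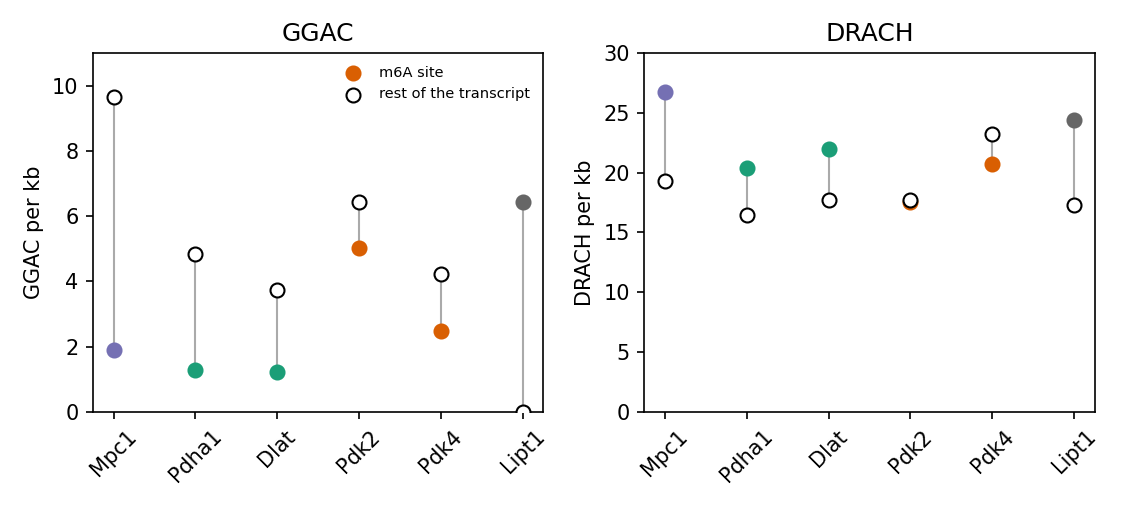
Motif matches per kb in the m6A site (filled points, coloured by role) and in the rest of the same spliced mRNA (open points), for GGAC on the left and DRACH on the right, with both axes starting at 0. For GGAC the open point is the higher one in all genes but Lipt1, where it is 0, and for DRACH the filled point is the higher one in Mpc1, Pdha1, Dlat and Lipt1.

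The partners of the 6 genes had no site. Over all 21900 protein-coding genes of RefSeq, 2.56% had one, so a short list without a site is no result about that list. Here and below this share counts every gene, whether or not its RNA was present in the tissue. The lists run from the carrier to lipoylation and hold 23 symbols, of which the 6 members were the only ones with a site. Mpc2, the other carrier subunit, had none, nor had Pdhb (E1 beta), Dld (E3) and Pdhx (the E3 binding protein). The phosphatases that switch the complex on, Pdp1, Pdp2 and their regulatory subunit Pdpr, had none. Of the lipoate pathway Lias (lipoyl synthase), Lipt2 (octanoyltransferase), Gcsh (the lipoylated H protein), Mcat, Oxsm, Mecr and Cbr4 (mitochondrial fatty acid synthesis) had none. Of these 23 genes, 22 were found in RefSeq by symbol and all 22 had an exon of at least 300 bp. The exception was Hsd17b8, also of mitochondrial fatty acid synthesis. No site carried that symbol, but since the symbol was not found, this says nothing about the gene.

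Of the 26 genes on the lists next to this step, 4 had a site. Ogdh, the E1 enzyme of the 2-oxoglutarate dehydrogenase complex, had 1 site, with a fold of 5.18 towards cold. Dlst, the E2 enzyme of that complex and like Dlat a lipoylated protein, had a site 4.91-fold higher in its 3′ UTR, close to the 4.66 of Dlat, and one in an intron that was 488.6-fold lower. The latter fold is a whole multiple of 0.1, as were those of 109 of the 739 sites, 36 of them higher. With such folds left out Dlst was higher only, but why these folds take such values was not tested. Both Dlst values are folds in the authors' deposited table. Among genes that make or use pyruvate, Pkm (pyruvate kinase, 5.87-fold) and Slc16a1 (a monocarboxylate transporter, 6.69-fold) were higher. Ldha and Ldhb, which exchange pyruvate and lactate, and Pcx, pyruvate carboxylase, had no site, and no gene of the thiamine cofactor list had one. Over all 8 lists, 10 of 49 symbols had a site, 9 of them higher only and Dlst in both directions. The other 39 had none, with Hsd17b8, not found by symbol, counted among them. The 6 members were chosen for having a site, and without them 4 of 43 symbols had one, with 2.56% of all protein-coding genes as the background. The lists were chosen with earlier results of these data known. The background was not limited to genes with RNA in the tissue, so no excess can be read from these shares. Leaving out the kinases, the folds of the higher sites on these lists ran from 4.66 to 7.33.

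**Figure D4:**
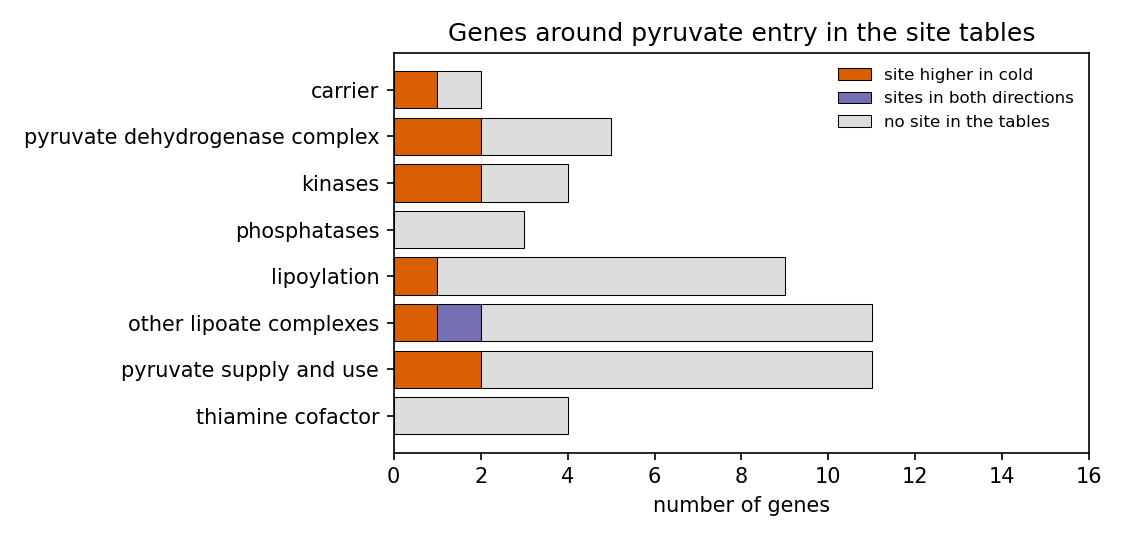
Number of genes on each list around pyruvate entry (bars start at 0), split into genes with a site higher in cold, genes with sites in both directions and genes with no site in the tables. The 6 members make up the orange bars of the carrier, complex, kinase and lipoylation lists, and most genes of the longer lists have no site.

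The deposited tables also carry pathway terms. Pyruvate metabolism was attached to 7 genes in the 2 tables, of which 6 were higher only, Pdha1 and Dlat among them. The other 5, named after their values were seen, were Acss1, Acss2, Acyp2 and Pkm, which were higher, and Aldh3a2, which was lower. The study drew attention to this pathway from these same samples, so the count is not independent of it. Pdha1 and Dlat were also chosen for having a site. Among all genes with sites of a single direction, 37.1% were higher only. Lipoic acid metabolism was attached to Lipt1 alone. All 6 members were annotated to the mitochondrion, as were 66 of the 207 genes that were higher only and 20 of the 351 that were lower only.

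Markers of other cells moved in the same tables. Of 15 skeletal muscle markers 8 had a site (Ttn, Neb, Myh1, Myh2, Myh4, Atp2a1, Casq1 and Pygm), all higher, with strongest folds of 8.19 to 169 in the authors' deposited table. Acta1, Ckm, Tnnt3, Actn3, Ryr1, Mb and Pvalb had none. Of 12 brown and beige adipocyte markers 8 had a site, all higher (9.29 to 1137.8, the latter a whole multiple of 0.1), and sites of 2 of 7 white adipocyte markers, Lep and Nnat, were lower (4.96 and 31.8). Macrophage markers with a site, 4 of 6, were lower (4.93 to 139). Over all protein-coding genes 2.56% had a site, and of genes with sites of a single direction 37.1% were higher only. The marker lists were chosen with earlier results of these data known. The folds of both kinases lay within the range of strongest folds of either marker list, and the other 4 genes, at 4.66 to 7.33, below both. Those ranges take only the strongest site of each marker. Weaker sites of the same markers went down to 5.51 (Ttn, muscle) and 4.16 (Ppargc1a, brown and beige). With all marker sites counted, only Dlat lay below the muscle range, and none of the genes lay below the brown and beige range. Of all higher sites 64.1% had a fold of at least 8. The part of muscle and of brown or beige fat cells in the result was not tested. Levels of the markers in the tissue were not analysed here.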

How the data were processed

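MeRIP-seq was done on iWAT of mice kept at 4 °C or 30 °C for 7 days, with 3 IP and 3 input libraries at each temperature. Groups were taken from the sample titles. According to the methods of the study, cutadapt trimmed the reads, Hisat2 aligned them to mm10, MACS2 called peaks, HOMER sought motifs and diffReps gave the differential sites. In the submitters' processing notes the aligner is Bowtie 0.12.2 instead of Hisat2, beside MACS2 and HOMER, and mm8 is listed next to mm10. Of the 739 sites, 728 overlapped their gene in GENCODE M21 of GRCm38, the assembly of mm10.

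The authors deposited 2 tables of the finished comparison, sites higher and sites lower in C against T, read as cold and thermoneutral from the sample titles. Each fold is a ratio of the larger to the smaller group, above 1 in both deposited tables. For each site the authors deposited a p-value and an FDR, and the −log10 of the p-value as a score, with the positions and length of each site in bp. These values are of the authors' own comparison, and values of single libraries were not analysed, so they are given as descriptions and no test was made on them. Depth is unknown, and no interval was computed. Columns of other samples numbered 0.

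Starts were read as counted from 0 and are printed counted from 1. Sites were placed by their midpoint, for all sites on the GENCODE transcript with the longest CDS and for the 6 genes in detail on the RefSeq transcript the table names. Motifs were counted on the transcribed strand, and other genome matches were sought with blastn 2.17.0+ (at least 95% identity over 100 bp). Python 3.11.15, numpy 2.4.6, pysam 0.24.0 and scipy 1.17.1 were used, and the functions were tested on simulated data. The text names the 6 genes with every site, each listed gene with a site, and the pyruvate entry genes without one. The genes and lists were chosen with earlier results of these data known. Alternatives were a minimum fold of 8, a p of at most 1e-07, leaving out folds that are whole multiples of 0.1, other ways of placing a site, DRACH for GGAC and starts counted from 1.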

Additional observations from a re-analysis of the deposited data

How the results depend on the processing

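With a minimum fold of 8, the count of the 6 genes' sites higher in cold, and of the genes higher only, went from 6 to 2 each, and the pyruvate entry genes with a site from 10 to 3. At a p of at most 1e-07 these counts were 2, 2 and 5. Both settings only remove sites. Leaving out folds that are whole multiples of 0.1 kept 6, 6 and 10, but removed the lower site of Dlst, so that the pyruvate entry genes higher only went from 9 to 10. The count of midpoints in the 3′ UTR was 5 under every way of placing a site that was run. The median of GGAC per kb was 2.19, or 2.18 with starts counted from 1, and DRACH in its place gave 21.3 per kb, a commoner motif by construction. After seeing the data 2 more settings were added for the kinase and subunit contrast of 2.85 on the log2 scale: 1.70 with Pdk2 left out and 2.70 with Mpc1 and Lipt1 counted with the subunits. No paired analysis was possible because the tables give 1 value per site for the whole comparison, which also kept single replicates from being left out. Depth and the spread between animals are unknown, so the precision of the folds could not be given.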

Other observations

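Regulators known to act on the transcription of Pdk4 had sites as well. Of 12 listed genes 5 had a site, 4 of them higher only in cold and 1 lower only. The folds in the authors' deposited table were 9.82, 7.55 and 5.44 for the 3 sites of Ppara, a nuclear receptor of fatty acid oxidation, and 17.0 and 4.16 for those of Ppargc1a, a coactivator of mitochondrial genes. Ppargc1b, a related coactivator, was 41.8-fold higher and Rxra, the partner of Ppara on DNA, 10.3-fold higher. Of the Ppara sites, only the 5.44-fold one had its midpoint in the coding transcript used, in the 3′ UTR. The midpoints of the 9.82-fold Ppara site and of the Ppargc1b site lay outside the transcripts used. The 7.55-fold Ppara site was not placed on a coding transcript. Foxo3, a forkhead factor, had 2 sites that were 406.3-fold and 37.2-fold lower, the first a whole multiple of 0.1. Ppard, Pparg, Esrra, Esrrg, Foxo1, Nr3c1 and Cebpb had none. Over all protein-coding genes 2.56% had a site, and over all genes with sites of a single direction 37.1% were higher only. The list was chosen with results of these data known, and a part of these regulators in the Pdk4 value was not tested.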
